A study of Mus musculus with 4 samples.

Results

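The interferon response and antigen presentation genes of meningeal lymphatic endothelial cells were followed after delivery of the lymphatic growth factor VEGF-C to aged mice. They were chosen by name: any row of the deposited table whose gene symbol belongs to the interferon receptors, the Janus kinases, the interferon regulatory factors, the sensors of foreign RNA, the families of interferon-stimulated genes, or the MHC class I and class II pathways. The rule used no expression value and gave the 75 genes described here, of the 9114 genes of the table. All 75 passed the filter on low values, a mean of at least 10 normalised counts over the 4 libraries.

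RNA was sequenced from 2 mVEGF-C libraries, from mice injected with AAV1-CMV-mVEGF-C, and 2 eGFP libraries, from mice injected with AAV1-CMV-eGFP. Every mouse was a male C57BL/6J animal of 20 to 24 months, carried no label of a genetic change, and had received 5 µL of virus into the cisterna magna 4 weeks before. AAV1 is an adeno-associated virus and CMV a promoter active in many cell types, so the virus and its promoter do not confine the transgene to lymphatic cells, and the eGFP mice carried virus too. Live single cells without CD45 and with CD31 and podoplanin were sorted, and each library pooled the meninges of 10 mice, so the spread between libraries is a spread between pools.

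Interferons are secreted proteins that signal infection. Type I interferons act through the receptor chains IFNAR1 and IFNAR2 and interferon gamma through IFNGR1 and IFNGR2. Janus kinases on the receptors pass the signal to transcription factors, which switch on antiviral effectors and the genes of antigen presentation. MHC class I molecules display peptides from inside the cell to CD8+ T cells, MHC class II molecules display peptides from taken-up proteins to CD4+ T cells, and lymphatic endothelium is known to carry both.

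The libraries held 25610683 to 28632461 reads on the genes of the table. Each of the 8 lymphatic endothelial markers examined had a row, and their summed level was 497286 to 601045 normalised counts in mVEGF-C libraries and 473403 to 540961 in eGFP libraries. The 6 fibroblast markers with a row summed to 43373 to 74020 in mVEGF-C and 32053 to 71440 in eGFP libraries. The 5 blood endothelial markers with a row summed to 12533 to 16995 in mVEGF-C and 10351 to 12415 in eGFP libraries. For the 3 mural markers with a row the sums were 10029 to 12222 in mVEGF-C and 13189 to 17844 in eGFP libraries. Transcripts of markers of other cell types were thus present, and which cells they came from was not tested. In such bulk samples fewer cells of a type and less RNA per cell cannot be told apart. The table keeps genes whose 2 libraries of a group lie near each other: log2(reads + 1) differed by at most 4.24 within the mVEGF-C pair and 2.83 within the eGFP pair. Libraries that differed more than this could remain together in the table only if they belonged to different groups, which makes the p-values below too small, to an unknown degree.

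Nlrc5, the transactivator of MHC class I genes, was higher in the mVEGF-C libraries, while H2-T22, a non-classical class I gene, and Oasl1, an interferon-stimulated gene of the oligoadenylate synthetase family, were lower. The other 72 genes did not pass the test, among them the receptors, both Janus kinases, B2m and the classical class I heavy chains. A gene is said to pass at a Benjamini-Hochberg adjusted p under 0.05 in limma, a linear model with a shared variance estimate fitted to log2(normalised count + 1) over the whole table. With this rule 1 of the 75 genes (1.33%) was higher, against 0.828% of the 9063 genes tested, and 2 (2.67%) were lower, against 1.31%. At an unadjusted p under 0.05 there were 5 higher (6.67%, against 5.09% of genes tested) and 5 lower (6.67%, against 6.7%). The median log2 fold change, mVEGF-C over eGFP, was 0.087 over the 75 genes and -0.02 over the genes tested, and 41 of the 75 (54.7%) were above 0, against 49.5%. The shares at an unadjusted p and above 0 lie near those of the table, so the 3 genes are reported as single genes and no shift of the whole set is read from them.

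**Figure D1:**
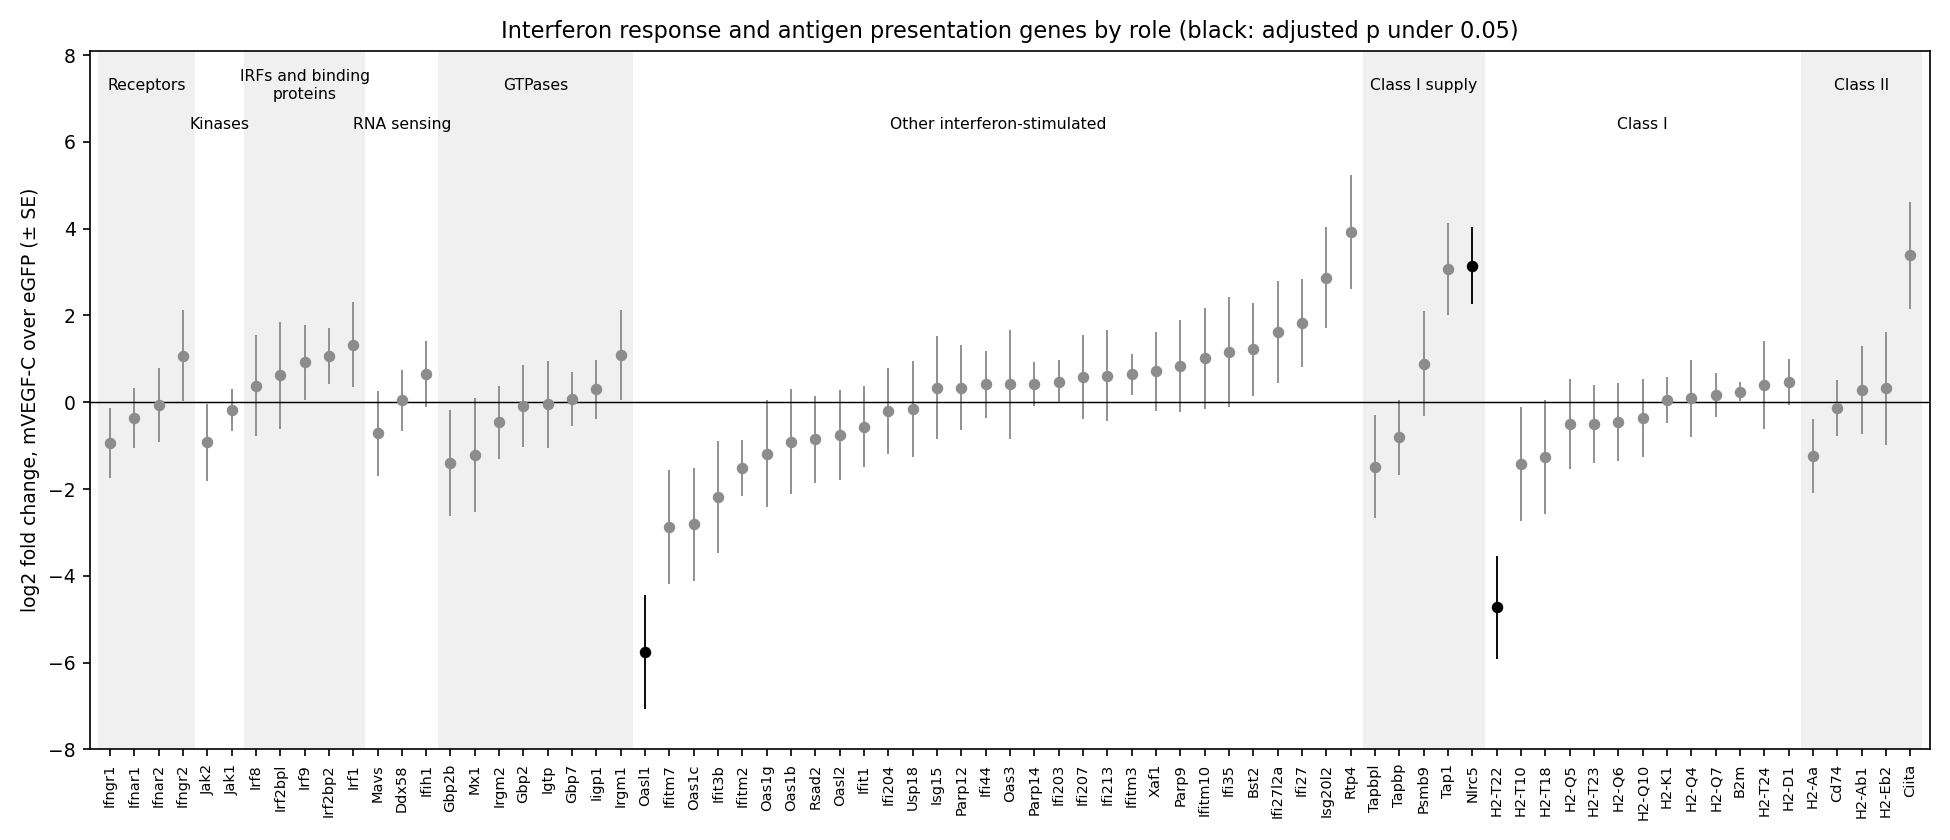
Log2 fold change of mVEGF-C over eGFP with its standard error (limma) for each of the 75 genes, grouped by role and ordered by size within a role. Nlrc5 at 3.14 stands above 0 and H2-T22 at -4.72 and Oasl1 at -5.75 below 0 in black, the 3 with an adjusted p under 0.05, and the grey points of the other 72 lie between -2.86 and 3.92.

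The 4 interferon receptor chains showed no difference that passed the test (limma, 0 at an adjusted and 0 at an unadjusted p under 0.05, and 0 in edgeR and in DESeq2). Ifngr1, the ligand-binding chain of the interferon gamma receptor, had 1401 and 4221 normalised counts in mVEGF-C and 5651 and 3799 in eGFP libraries. Ifngr2, its signalling chain, had 592 and 4273 in mVEGF-C and 675 and 847 in eGFP libraries, so its mean was set by mVEGF-C 2. The type I chain Ifnar1 had 6539 and 3418 normalised counts in mVEGF-C and 7126 and 5177 in eGFP libraries. Ifnar2 had 2439 and 2839 in mVEGF-C and 3680 and 2042 in eGFP libraries. The groups overlapped for all 4 receptor chains, with log2 fold changes between -0.93 (Ifngr1) and 1.07 (Ifngr2). No interferon gene itself was among the 75. Ifnar1, Ifnar2 and Ifngr2 are neighbours on chromosome 16, between 91372783 and 91565623 of GRCm38.

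Neither of the 2 Janus kinases passed (limma, 0 at an adjusted and 0 at an unadjusted p under 0.05, and 0 in edgeR and in DESeq2). Jak1, the kinase shared by both receptor types, had 15837 and 9358 normalised counts in mVEGF-C and 11959 and 15904 in eGFP libraries. Jak2, the second kinase of the interferon gamma receptor, had 1872 and 1588 in mVEGF-C and 3894 and 2748 in eGFP libraries. The Jak2 groups did not overlap, yet the log2 fold change of -0.92 (SE 0.89) did not pass (limma, adjusted p = 0.803).

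The interferon regulatory factors and their binding proteins lay above 0 in 5 of 5 genes, but none passed (limma, 0 at an adjusted and 0 at an unadjusted p under 0.05, and 0 in edgeR and in DESeq2). Irf9, the DNA-binding part of the complex that type I interferon activates, had 3795 and 3213 normalised counts in mVEGF-C and 2950 and 1158 in eGFP libraries. The Irf9 groups did not overlap, with a log2 fold change of 0.92 (SE 0.87). Irf1, a factor that interferon gamma induces, had 5512 and 1099 in mVEGF-C and 771 and 1250 in eGFP libraries, so mVEGF-C 1 alone stood apart. Its log2 fold change of 1.33 had a 95% interval of -0.60 to 3.25. Irf2bp2, a co-repressor that binds IRF2, had 10945 and 8552 normalised counts in mVEGF-C and 6077 and 3501 in eGFP libraries, a log2 fold change of 1.07 (SE 0.64). Irf8, a factor of myeloid cells, reached 1245 and 295 in mVEGF-C and 882 and 246 in eGFP libraries, with overlapping groups. Non-overlap of this kind was common: the mVEGF-C pair exceeded the eGFP pair without overlap for 14 of the 75 genes (18.7%, against 19.4% of genes tested) and lay below it for 11 (14.7%, against 19.8%).

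Promoter sequences are shown for 6 genes because interferons act through short DNA elements near the start of transcription, and these genes span the patterns seen: a regulatory factor that interferon gamma induces (Irf1), the peptide transporter with a raised mean (Tap1), a class I gene that fell (H2-T22), an effector that fell (Oasl1), the abundant class I light chain (B2m) and a standard interferon-stimulated gene (Ifit1). Each line gives the 250 bases before the annotated start, 5′ to 3′ on the gene's strand, from RefSeq on GRCm38.p6. Capitals mark matches to the interferon-stimulated response element (ISRE, searched as GAAANNGAAA or its reverse complement TTTCNNTTTC) or to the gamma-activated site (GAS, searched as TTCNNNGAA, which is its own reverse complement). Irf1 has a further annotated start, not shown, whose window holds neither motif.
Irf1, chr11:53769764-53770013, plus strand: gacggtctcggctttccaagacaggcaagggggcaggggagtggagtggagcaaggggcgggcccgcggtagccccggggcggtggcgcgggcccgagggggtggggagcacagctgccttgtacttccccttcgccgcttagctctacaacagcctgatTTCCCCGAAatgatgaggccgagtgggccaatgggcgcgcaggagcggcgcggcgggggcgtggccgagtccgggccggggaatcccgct
Tap1, chr17:34187306-34187555, plus strand: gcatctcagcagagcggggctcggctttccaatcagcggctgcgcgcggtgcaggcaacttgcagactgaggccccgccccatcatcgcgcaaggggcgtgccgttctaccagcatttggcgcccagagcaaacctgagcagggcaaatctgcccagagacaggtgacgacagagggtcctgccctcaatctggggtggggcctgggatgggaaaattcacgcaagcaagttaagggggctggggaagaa
H2-T22, chr17:36042743-36042992, minus strand: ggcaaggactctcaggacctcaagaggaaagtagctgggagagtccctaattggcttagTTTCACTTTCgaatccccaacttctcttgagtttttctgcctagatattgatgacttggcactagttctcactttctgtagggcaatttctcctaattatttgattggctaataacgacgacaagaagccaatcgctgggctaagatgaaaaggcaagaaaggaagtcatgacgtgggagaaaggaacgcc
Oasl1, chr5:114922990-114923239, plus strand: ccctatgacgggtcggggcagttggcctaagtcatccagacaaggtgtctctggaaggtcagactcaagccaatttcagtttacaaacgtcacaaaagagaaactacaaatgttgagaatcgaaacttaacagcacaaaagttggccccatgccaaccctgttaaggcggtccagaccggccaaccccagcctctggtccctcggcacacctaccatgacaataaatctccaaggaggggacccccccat
B2m, chr2:122147437-122147686, plus strand: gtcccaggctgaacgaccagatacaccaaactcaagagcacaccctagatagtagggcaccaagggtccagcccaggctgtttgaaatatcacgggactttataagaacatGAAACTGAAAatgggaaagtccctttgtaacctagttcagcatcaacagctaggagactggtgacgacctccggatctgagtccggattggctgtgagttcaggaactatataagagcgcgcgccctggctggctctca
Ifit1, chr19:34640639-34640888, plus strand: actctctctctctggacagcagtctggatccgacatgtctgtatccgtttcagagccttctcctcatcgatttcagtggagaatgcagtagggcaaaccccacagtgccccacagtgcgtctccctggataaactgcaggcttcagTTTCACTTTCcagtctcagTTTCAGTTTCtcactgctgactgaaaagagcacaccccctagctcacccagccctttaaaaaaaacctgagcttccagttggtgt

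The window of Irf1 holds 1 GAS that begins 90 bases before the start. H2-T22 and B2m hold 1 ISRE each, beginning 191 and 139 bases before the start, and Ifit1 holds 2, at 104 and 85 bases. Neither motif, in these letters, was found in the windows of Tap1 and Oasl1. Promoter windows were found for 56 of the 75 genes, and 21 of them (37.5%) held an ISRE, against 219 of 6372 genes tested with a window (3.44%) and 936 of all 27025 genes of the promoter table (3.46%). GAS matches stood in 7 of the 56 (12.5%), against 7.2% of the genes tested with a window and 8.13% of the promoter table. Both motifs stood in the windows of Bst2, Gbp7, Igtp and Irgm2; no distance between them was required. Of the 21 genes with an ISRE, 9 lay above 0, the median being -0.09 and the range from -4.72 (H2-T22) to 1.22 (Bst2). Of the 35 without one, 22 were above 0, with a median of 0.32 and a range from -5.75 (Oasl1) to 3.07 (Tap1). No window was found for Nlrc5, Ciita and Rtp4, so these genes stand in neither group. The presence of the motif is a property of the letters, and these counts are a description.

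The 1 gene that passed as higher, Nlrc5, was among the 5 class I supply genes. Nlrc5 (chromosome 8, 94434356 to 94527272), whose protein switches on class I promoters and is itself induced by interferon gamma, had 11605 and 4452 normalised counts in mVEGF-C and 1594 and 414 in eGFP libraries. The groups did not overlap, and the mean was 8028 ± 5058 in mVEGF-C against 1004 ± 835 in eGFP libraries (SD, n = 2 each). The log2 fold change of 3.14 (SE 0.88, 95% interval 1.41 to 4.88) passed in limma (adjusted p = 0.0242), in edgeR (0.0217) and in DESeq2 (0.0244). It was lost without mVEGF-C 1 (limma, adjusted p = 0.39), without eGFP 2 (0.846) and in limma without the variance trend (0.226). Tap1 (chromosome 17, 34187553 to 34197225), a subunit of the pump that carries peptides into the endoplasmic reticulum, had 2625 and 3451 in mVEGF-C and 710 and 180 in eGFP libraries. Its log2 fold change of 3.07 (SE 1.06) missed the threshold in limma (adjusted p = 0.11) and in edgeR (adjusted p = 0.197) and passed in DESeq2 (adjusted p = 0.0341).

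The remaining supply genes did not share this pattern. Psmb9, a subunit of the immunoproteasome that cuts peptides for class I, had 652 and 349 normalised counts in mVEGF-C and 126 and 522 in eGFP libraries, so the groups overlapped. The annotated 5′ ends of Psmb9 and Tap1 overlap on opposite strands, and reads there cannot be told apart without strand, which the sources used here do not give for the counting. Nlrc5 also overlaps annotated genes, 9330175E14Rik on the opposite strand and Mir7072 on the same strand. Tapbp (tapasin), which loads peptides onto class I, had 961 and 4184 in mVEGF-C and 2892 and 4248 in eGFP libraries. Tapbpl, a tapasin-related peptide editor, had 346 and 198 in mVEGF-C and 378 and 1436 in eGFP libraries, a log2 fold change of -1.49 (SE 1.19). Thus 3 of the 5 supply genes lay above 0 and 2 below.

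Of the class I molecules themselves H2-T22 fell, and the abundant members had overlapping groups. B2m, the light chain of all class I molecules, ranked 16 of the 9063 genes by mean level. It had 88358 and 61752 normalised counts in mVEGF-C and 65735 and 59009 in eGFP libraries, a log2 fold change of 0.25 with a 95% interval of -0.17 to 0.67. H2-K1 and H2-D1 are the classical heavy chains of this strain. H2-K1 had 10339 and 10583 in mVEGF-C and 11346 and 8976 in eGFP libraries, with an interval of -1.0 to 1.11. H2-D1 had 9718 and 16311 in mVEGF-C and 8546 and 9812 in eGFP libraries, with an interval of -0.58 to 1.5. Both intervals include 0 and reach past 1 on the log2 scale, so equal levels are not shown. The sum over the 13 class I genes was 138676 and 109746 normalised counts in mVEGF-C and 110422 and 109048 in eGFP libraries. Of the 13, 6 were above 0 and 7 below, and the others, H2-Q4, H2-Q5, H2-Q6, H2-Q7, H2-Q10, H2-T10, H2-T18, H2-T23 and H2-T24, lay between -1.42 (H2-T10) and 0.40 (H2-T24).

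H2-T22 (chromosome 17, 36037128 to 36042747) encodes a non-classical class I molecule that some gamma-delta T cells recognise in mice. It had 55.6 and 130 normalised counts in mVEGF-C and 1604 and 3197 in eGFP libraries. Both mVEGF-C libraries lay far below both eGFP libraries, and the eGFP mean was 25.9 times as high. The log2 difference of -4.72 (SE 1.19) passed in limma (adjusted p = 0.00741), and the gene passed in edgeR (adjusted p = 0.0257) and in DESeq2 (9.44e-06). It did not pass without mVEGF-C 1 (limma, adjusted p = 0.051), without eGFP 1 (0.149), without eGFP 2 (0.797) or without the variance trend (0.0647). Heavy chain genes are near-copies of each other, so reads can be divided among them in a way the table does not record. H2-T22 also overlaps A930015D03Rik on the opposite strand in the annotation. The neighbours of H2-T22 gave 66.2 and 18.6 (H2-T10) and 1043 and 3585 (H2-T23) in mVEGF-C libraries, against 194 and 47.0 (H2-T10) and 1807 and 4116 (H2-T23) in eGFP libraries. Neither neighbour passed. In the MHC region of chromosome 17, from 33915899 to 36121465, stood 17 of the 75 genes, 9 of them above 0, with H2-T22 lowest and Tap1 highest.

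**Figure D2:**
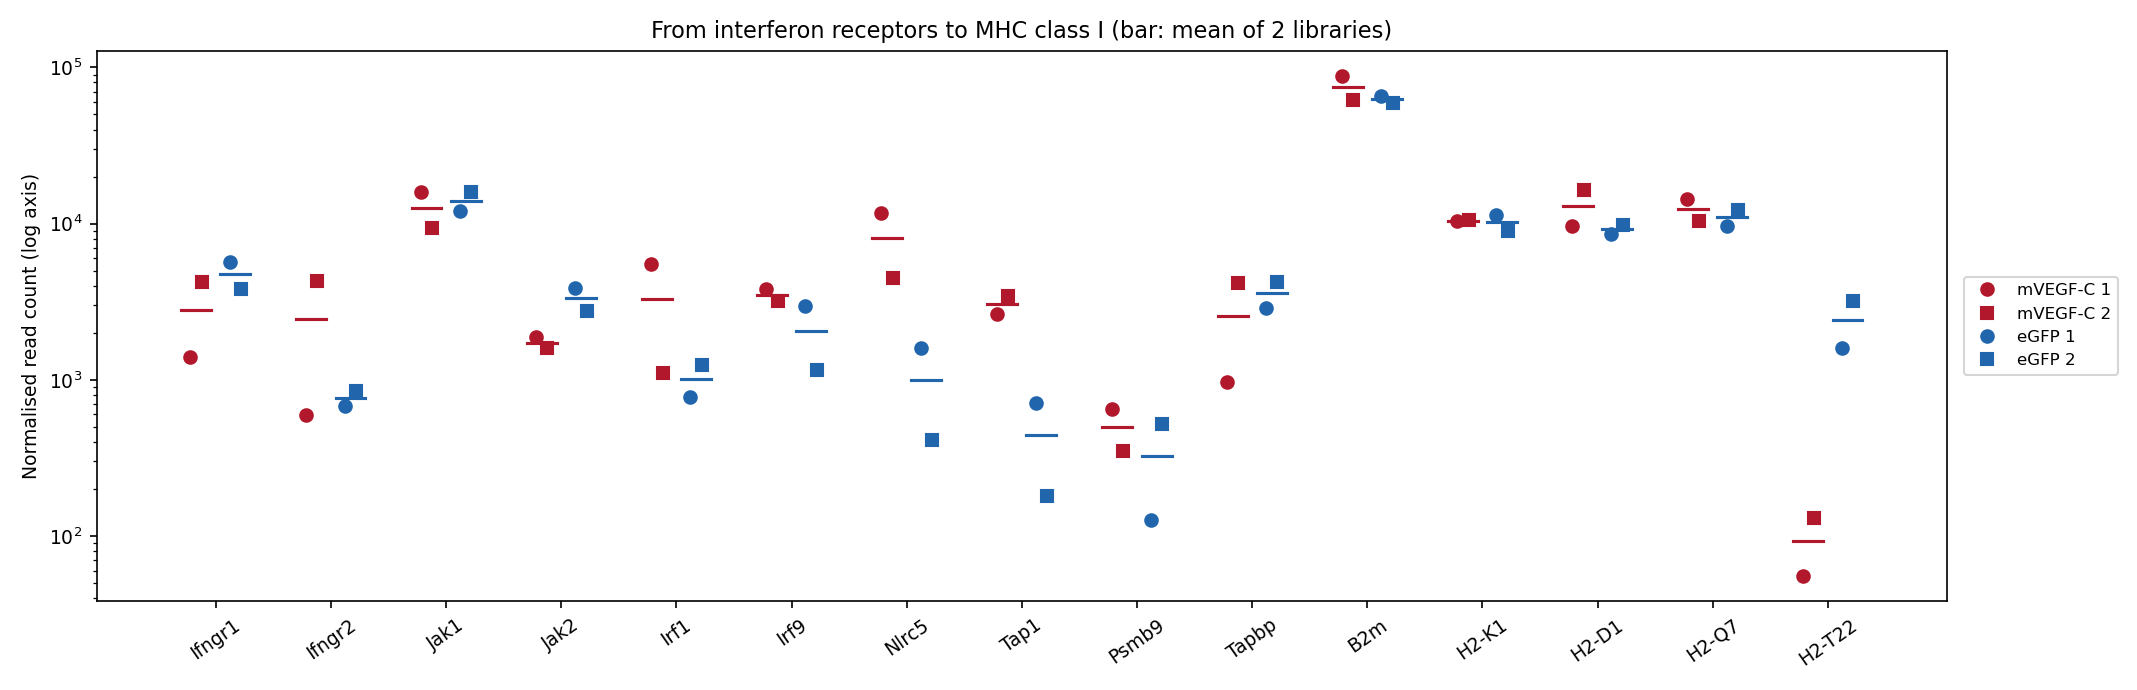
Normalised read counts on a log axis in the 4 libraries for genes from the interferon gamma receptor to MHC class I, with the mVEGF-C libraries in red left of the eGFP libraries in blue and a bar at each mean. Nlrc5 and Tap1 lie higher in both mVEGF-C libraries and H2-T22 lower, while B2m, H2-K1, H2-D1 and H2-Q7 lie close together in the 4 libraries.

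Per kilobase of annotated exon, the order of the mean levels over the 4 libraries was B2m (79899 normalised counts per kilobase), Ifitm3 (21268), Ifitm2 (12576), H2-Q7 (7599), H2-K1 (6230), H2-D1 (5279) and Cd74 (4724). B2m was the highest of the 75 in each library, at 102741 and 71805 per kilobase in mVEGF-C and 76436 and 68615 in eGFP libraries. Below B2m the libraries of neighbours in this order overlap, so the order of these genes is not fixed by these data. Ifitm2 had 6114 and 5938 per kilobase in mVEGF-C and 10680 and 27571 in eGFP libraries. Nlrc5, at 556 per kilobase, was far below B2m, H2-Q7, H2-K1 and H2-D1 in mean level. Its mean was nearer to that of H2-T22 (691) and above that of H2-T10 (48.0). The near means of Nlrc5 and H2-T22 describe neither group. Nlrc5 had 1429 and 548 per kilobase in mVEGF-C and 196 and 50.9 in eGFP libraries. H2-T22 had 30.8 and 72.1 per kilobase in mVEGF-C and 888 and 1771 in eGFP libraries. RNA was amplified linearly before sequencing, and whether coverage along transcripts was even was not tested.

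None of the 5 MHC class II genes passed in limma, and 3 lay above 0 and 2 below. At an unadjusted p under 0.05 in limma 1 was higher, against 5.09% of the genes tested. In edgeR 0 passed, and in DESeq2 1 was higher, against 3.12% of the genes tested. Ciita (chromosome 16, 10480059 to 10528418), the master activator of class II genes, had 568 and 1484 normalised counts in mVEGF-C and 80.6 and 94.1 in eGFP libraries. Its groups stood apart, and its log2 fold change of 3.38 (SE 1.23) did not pass in limma (adjusted p = 0.139) or edgeR and passed in DESeq2 (adjusted p = 0.00165). H2-Aa, the class II alpha chain, had 842 and 3697 in mVEGF-C and 4452 and 3870 in eGFP libraries, a log2 fold change of -1.23 (SE 0.86). H2-Ab1, its partner chain, had 1395 and 1627 in mVEGF-C and 2298 and 658 in eGFP libraries. H2-Eb2, a further beta chain gene, had 3.20 and 50.2 in mVEGF-C and 13.4 and 8.55 in eGFP libraries, with overlapping groups. Cd74, the invariant chain that guards the class II groove, had 7085 and 5440 in mVEGF-C and 9252 and 4981 in eGFP libraries, with an interval of -1.39 to 1.13. Leukocytes are the usual source of class II transcripts, and the 5 of 14 pan-leukocyte and myeloid markers with a row summed to 31090 and 27894 in mVEGF-C and 30309 and 37126 in eGFP libraries. Most of each sum was Mrc1, at 28512 and 23299 in mVEGF-C and 27577 and 32880 in eGFP libraries, a receptor that lymphatic endothelium carries too. Laptm5, a leukocyte gene, had 1899 and 3148 in mVEGF-C and 184.5 and 977 in eGFP libraries, and Fcer1g had 274 and 899 in mVEGF-C and 1654 and 2572 in eGFP libraries. Itgam had 76.9 and 122.6 in mVEGF-C and 697.5 and 310 in eGFP libraries. Cx3cr1 had 328 and 425.5 in mVEGF-C and 196.1 and 387 in eGFP libraries. The 3 of 6 T and NK cell markers with a row summed to 678 and 376 in mVEGF-C and 972 and 604 in eGFP libraries. Most of that sum was Cd3d, at 639 and 318 in mVEGF-C and 850 and 449 in eGFP libraries, while Cd3e had 0 and 7.4 in mVEGF-C and 15.2 and 12.8 in eGFP libraries. Cd4 had 39.5 and 51.1 in mVEGF-C and 107.5 and 142.2 in eGFP libraries. The 2 of 7 dendritic and B cell markers with a row, mostly Zbtb46, summed to 5516.6 and 1394.5 in mVEGF-C and 2925.4 and 1695.3 in eGFP libraries. Ptprc and 8 other markers of the pan-leukocyte and myeloid list were not analysed here, and the part of leukocytes in the class II values was not tested.

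Of the 30 interferon-stimulated effectors and regulators, 1 passed, in the lower direction (3.33%, against 1.31% of the genes tested). Above 0 were 18 of the 30 (60%, against 49.5%), with a median log2 fold change of 0.42. Oasl1 (chromosome 5, 114923240 to 114937915), which in mice restrains translation of the factor IRF7, had 0 and 12.1 normalised counts in mVEGF-C and 169 and 220 in eGFP libraries. That is 0 and 13 reads in mVEGF-C against 189 and 206 reads in eGFP libraries. The log2 fold change of -5.75 (SE 1.31; limma, adjusted p = 0.00206) depends on the pseudocount, since 1 library was at 0: it was -6.27 with 0.5 and -4.42 with 5. Oasl1 passed in edgeR (adjusted p = 0.0398) and in DESeq2 (0.00125) and did not without mVEGF-C 1 (limma, adjusted p = 0.153, at -3.89), eGFP 1 (0.199), eGFP 2 (0.54) or the variance trend (0.0721).

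Other effectors had clear separations that missed the adjusted threshold. Rtp4, an interferon-induced receptor transporter protein, had 108 and 79.0 normalised counts in mVEGF-C and 8.06 and 3.21 in eGFP libraries, a log2 fold change of 3.92 (limma, adjusted p = 0.0898). It passed in DESeq2 (adjusted p = 0.00735) and with quantile normalization (limma, adjusted p = 0.0326), and rests on 9 and 3 reads in the eGFP libraries. In the annotation Rtp4 overlaps Masp1, Isg20l2 overlaps Rrnad1, Ifitm7 overlaps 2900011O08Rik and Ciita overlaps Dexi, each on the opposite strand. Isg20l2, named for its likeness to ISG20 and known in human cells as a nuclease of ribosomal RNA processing, had 2105 and 904 in mVEGF-C and 124 and 284 in eGFP libraries (2.87; limma, adjusted p = 0.222). Ifitm2, which hinders virus entry at endosomes, had 4005 and 3889 in mVEGF-C and 6995 and 18059 in eGFP libraries (-1.51; limma, adjusted p = 0.254). Its relative Ifitm3 had 17622 and 17431 in mVEGF-C and 9595 and 13029 in eGFP libraries, above in both mVEGF-C libraries, with a log2 fold change of 0.65 (SE 0.47). Ifitm7 had 10.7 and 15.8 in mVEGF-C and 164 and 62.0 in eGFP libraries (-2.86; limma, adjusted p = 0.324). Oas1c, of the family that makes the second messenger for RNase L, had 22.4 and 24.2 in mVEGF-C and 162 and 177 in eGFP libraries (-2.81; limma, adjusted p = 0.334).

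**Figure D3:**
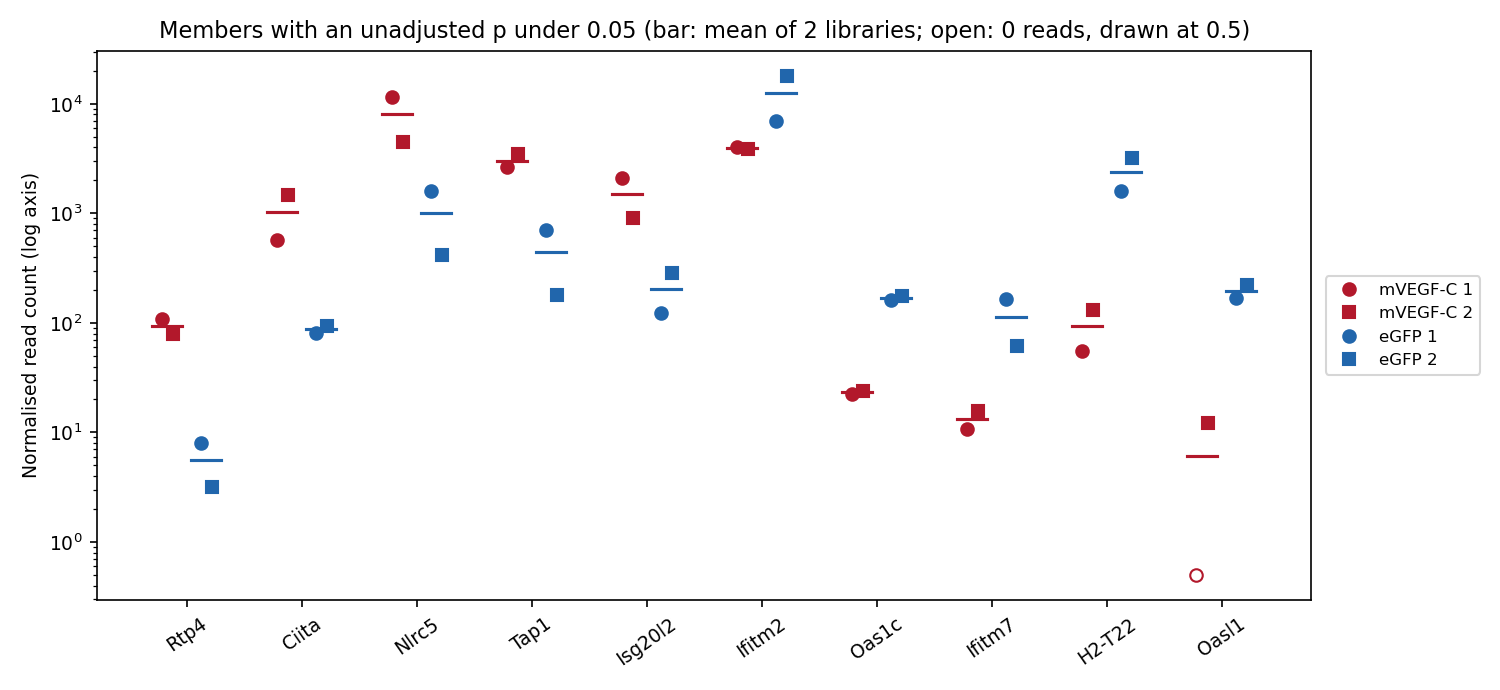
Normalised read counts on a log axis for the 10 genes with an unadjusted p under 0.05, ordered by fold change, with mVEGF-C libraries in red left of eGFP libraries in blue and a bar at each mean. The groups do not overlap for any of the 10, from Rtp4 at the left to Oasl1 at the right. The 10 were picked by p in these same libraries, so their separation is no further evidence. The mVEGF-C 1 library of Oasl1 had 0 reads and is drawn open.

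Widely used interferon-stimulated genes showed no common direction. Isg15, a ubiquitin-like modifier, had 323 and 720 normalised counts in mVEGF-C and 463 and 315 in eGFP libraries. Ifit1, which binds foreign RNA ends, had 1150 and 2295 in mVEGF-C and 1297 and 4413 in eGFP libraries. Usp18, which removes ISG15 and dampens the type I receptor, had 1486 and 398 in mVEGF-C and 410 and 1764 in eGFP libraries. For these 3 genes the groups overlapped. Rsad2 (viperin) had 2973 and 388 in mVEGF-C and 1660 and 2269 in eGFP libraries, again overlapping. By contrast, Ifi27 had 3563 and 1850 in mVEGF-C and 546 and 957 in eGFP libraries, and Bst2 (tetherin), which holds budding virus to the cell, 2757 and 879 in mVEGF-C and 609 and 735 in eGFP libraries. Both were higher in each mVEGF-C library, with log2 fold changes of 1.83 (95% interval -0.16 to 3.81) and 1.22 that did not pass (limma, adjusted p = 0.496 and 0.766). The 4 Oas genes next to each other on chromosome 5 (Oas3, Oas1c, Oas1b and Oas1g) had a median of -1.05 and a range of -2.81 to 0.42, and the 4 Ifi200 genes on chromosome 1 (Ifi213, Ifi207, Ifi204 and Ifi203) a median of 0.53 and a range of -0.20 to 0.61. Both are families of similar genes that can share reads. The effectors not yet given, Ifi27l2a, Ifi35, Ifi44, Ifit3b, Ifitm10, Oasl2, Parp9, Parp12, Parp14 and Xaf1, lay between -2.18 (Ifit3b) and 1.62 (Ifi27l2a), and for Ifi27l2a, Ifi44 and Parp9 both mVEGF-C libraries stood above both eGFP libraries.

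The sensors and the interferon-inducible GTPases did not change by the test (limma, 0 of 11 at an adjusted and 0 at an unadjusted p under 0.05, and 0 in edgeR and in DESeq2). Ddx58 (RIG-I), a sensor of viral RNA, had 5626 and 4674 normalised counts in mVEGF-C and 2460 and 10060 in eGFP libraries, its 2 extremes both in the eGFP group. Ifih1 (MDA5), a sensor of long double-stranded RNA, had 4738 and 5403 in mVEGF-C and 4916 and 2100 in eGFP libraries. Mavs, the mitochondrial adaptor of both, had 1284 and 1205 in mVEGF-C and 2686 and 1538 in eGFP libraries, lower in each mVEGF-C library at -0.71 (SE 0.98). Among the GTPases, which attack the vacuoles of intracellular parasites, Irgm1 had 1573 and 1954 in mVEGF-C and 657 and 1020 in eGFP libraries (1.10, SE 1.04). Iigp1, the highest of them per kilobase, had 6887 and 5548 in mVEGF-C and 6322 and 3996 in eGFP libraries. Gbp2b, a guanylate-binding protein, had 590 and 56.7 in mVEGF-C and 699 and 340 in eGFP libraries, the lowest fold change of the group at -1.40 (SE 1.22). The other GTPases, Gbp2, Gbp7, Igtp, Irgm2 and Mx1, lay between -1.21 (Mx1) and 0.08 (Gbp7).

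**Figure D4:**
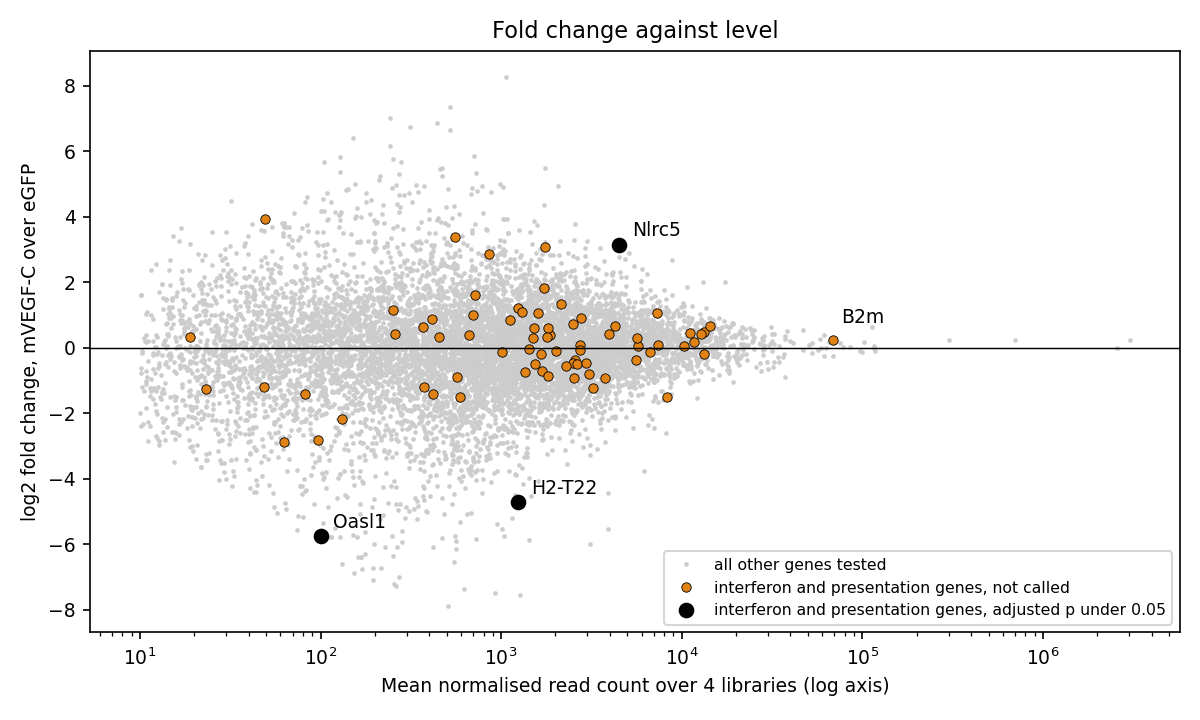
Log2 fold change of mVEGF-C over eGFP against the mean normalised read count (log axis) for the 75 genes over the other genes tested in grey. The 3 genes that passed stand toward the edge of the cloud at their level. Among the abundant genes B2m lies at 0.25, while Irf2bp2 at 1.07 and Ifitm2 at -1.51 lie further from the line.

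The spread inside the groups was large for these genes, as for the table. In the mVEGF-C pair the median absolute log2 difference between the libraries was 0.90 for the 75 genes and 1.07 for the genes tested, and in the eGFP pair it was 0.99 and 0.94. The fold change was larger than the difference inside either group for 19 of the 75 genes (25.3%), against 26.1% of the genes tested. For 3 of the 75 genes (4%, against 4.88% of all genes of the table), Rtp4, H2-T22 and Oasl1, the libraries could not have been paired across the groups within the limits on spread, so such genes could be in the table only with the groups apart. That their groups do not overlap is therefore no further evidence.

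The number of the 75 genes that passed moved with the tool and with single libraries. DESeq2 called 5 higher (Nlrc5, Tap1, Ciita, Rtp4 and Isg20l2), against 3.12% of the genes tested, and 4 lower (H2-T22, Oasl1, Ifitm7 and Oas1c), against 3.51%. edgeR called the 3 genes that passed in limma, with 0.739% of the genes tested higher and 0.872% lower. limma without the variance trend called none (0 at an adjusted p under 0.05, 5 higher and 4 lower at an unadjusted p under 0.05), with 0.166% of the genes tested higher and 0.287% lower. Without mVEGF-C 1 none passed (limma, 5 higher and 4 lower at an unadjusted p under 0.05), against 0.695% higher and 1.27% lower of the genes tested, and without mVEGF-C 2 all 3 passed, against 1.15% and 2.07%. Without eGFP 1 Nlrc5 passed and neither lower gene did, against 0.21% in each direction. Without eGFP 2 none of the 75 passed (limma, 0 at an adjusted p under 0.05, 3 higher and 2 lower at an unadjusted p under 0.05), against 0.0552% of the genes tested higher and 0% lower.

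**Figure D5:**
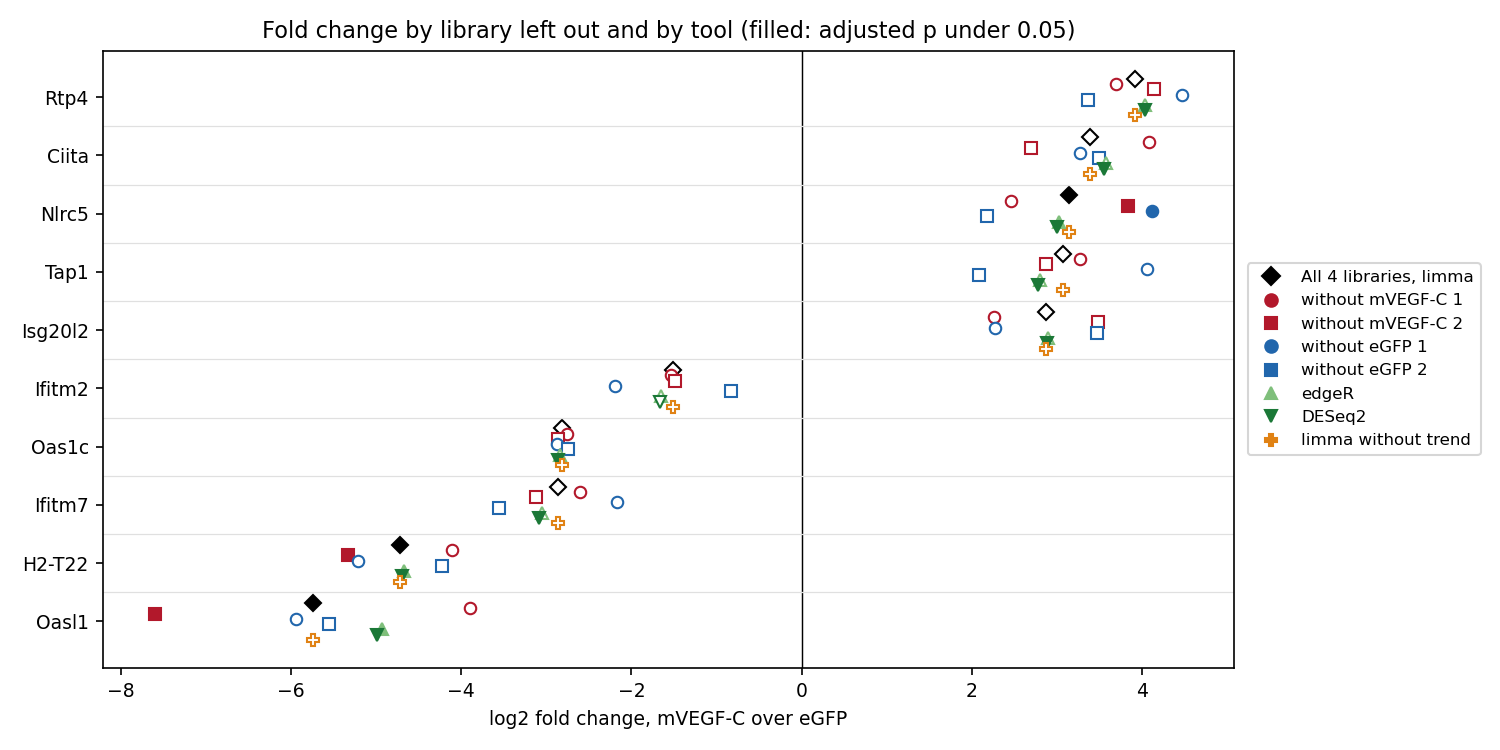
Log2 fold change of the 10 genes with an unadjusted p under 0.05, with all libraries, without each library and with other tools, filled where the adjusted p is under 0.05. Each gene stayed on its side of 0. With a library left out this was fixed in advance, because the groups of the 10 do not overlap.

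Outside the name rule, a list of 56 further genes of the same pathways was read in the same fit, and 30 had a row. None passed (limma, 0 at an adjusted p under 0.05, 1 higher and 1 lower at an unadjusted p under 0.05; edgeR 0; DESeq2 0 higher and 1 lower). At the unadjusted p the shares were 3.33% each way, against 5.09% higher and 6.7% lower of the genes tested (limma). In DESeq2 3.51% of the genes tested were lower. The median log2 fold change of the 30 was -0.0040, with 14 above 0 (46.7%, against 49.5%). The highest was Psme1, a subunit of the proteasome activator that interferon gamma induces, with 7337 and 5283 normalised counts in mVEGF-C and 1111 and 1525 in eGFP libraries (2.26; limma, adjusted p = 0.163). The lowest was Trim21, a receptor for antibodies inside the cell, with 85.5 and 166 in mVEGF-C and 1664 and 725 in eGFP libraries (-3.19; limma, adjusted p = 0.168). Calr (calreticulin), a chaperone of class I loading, had 7636 and 11846 in mVEGF-C and 5640 and 2749 in eGFP libraries (1.27; limma, adjusted p = 0.435), whereas its partner Pdia3 had 5744 and 8555 in mVEGF-C and 7489 and 6618 in eGFP libraries, with overlapping groups.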

How the data were processed

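The deposited table holds a signal, gene counts that the authors divided by 1 factor per library; per the submitters' processing notes FastQC, Trimmomatic, Salmon and DESeq2 were used with mm10, and no versions are given. Every value was a whole multiple of the smallest step of its library (100% within 0.001), so reads were recovered. The main test was limma 3.58.1 in R 4.3.3 (trend, two-sided) on log2(normalised count + 1), mVEGF-C over eGFP, with Benjamini-Hochberg adjustment over the 9063 genes whose mean reached 10. The added 1 draws fold changes of low genes toward 0, yet the limma values were not always the smaller ones. Oasl1 was at -5.75 in limma, -4.93 in edgeR and -4.99 in DESeq2, and Rtp4 at 3.92, 4.03 and 4.04. With 2 residual degrees of freedom the variance came from the trend alone, so a gene's own spread did not enter its p-value. edgeR 4.0.16 and DESeq2 1.42.0 were run on the reads. The tests were also run on simulated data with the same spread for every gene and no limit on spread. Such data cannot give the error rate in this table. The SE and intervals of the limma fit come from the same trend, and the spread of a gene's own libraries is seen in its printed values.

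Coordinates (1-based) and exon lengths are from GENCODE vM21 on GRCm38, which is mm10, found for 74 of 75 genes. Library values are printed for genes that passed, genes with an unadjusted p under 0.05, the highest per length and the most extreme fold changes (mean of at least 50) of each role, and core pathway genes by name; Isg15, Ifit1, Usp18, Rsad2, Irf8, Psmb9, H2-Ab1, H2-T10, H2-T23, H2-Q7, Ifi27, Bst2 and Calr with Pdia3, and the promoters shown, were chosen after values were seen. Of rows named by an Ensembl identifier, 1 (Ifi203-ps) would match the name rule and was left out. One gene that the name rule finds is not reported here and stands in no count over the 75. The genes and lists were chosen with earlier results of these data known. No source states whether libraries are separate beyond the pools. The limma p-values rest on the spread between these libraries, shared over genes of similar level and not taken gene by gene.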

Additional observations from a re-analysis of the deposited data

How the results depend on the processing

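Over the 16 alternatives, the median log2 fold change of the 75 genes moved by less than 0.133. That value is the square root of the summed replicate variances of the 2 groups, a wider measure than the SD inside either group. The median was 0.087 in the main fit, and its sign turned with quantile normalization (-0.013) and without eGFP 1 (-0.0080). Of the 75 genes 0 were higher and 0 lower in limma without trend, 5 and 4 in DESeq2, 2 higher with quantile normalization, and 0 to 1 higher and 0 to 2 lower with a library left out. Over all genes tested, limma without trend called 15 higher and 26 lower, DESeq2 283 and 318, edgeR 79 lower, and leaving out a library gave 5 to 104 higher and 0 to 188 lower. The causes were not tested. Rescaling to one total moved the median of all genes to -0.10, against -0.02. Samples with the same replicate number did not deviate together (correlation 0.00013 across genes), so the numbers name samples only; with the replicate block 74 genes were higher and 129 lower, and no call among the 75 genes changed.

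The fold changes of 41 of the 75 genes had the other sign in at least 1 alternative, and none of the 41 passed in any of these fits. They include 11 of the 33 genes that the naming rule gave. Ddx58 stood at -0.040 with one total, -0.030 with one upper quartile, -0.013 with quantile normalization, -0.26 in edgeR and -0.28 in DESeq2, and H2-K1 at -0.032, -0.022 and -0.080 under the same 3 scalings. With a library left out the values lay between -0.97 and 1.06 for Ddx58, -0.12 and 0.22 for H2-K1, -0.012 and 0.50 for B2m, -0.58 and 0.32 for Cd74, -3.08 and 0.27 for Gbp2b, -0.83 and 0.11 for Ifnar1, -0.48 and 0.37 for Ifnar2, -0.35 and 2.5 for Ifngr2, -0.032 and 0.63 for Iigp1, -0.56 and 0.20 for Jak1, and -1.87 and 0.26 for Tapbp. Depth limits the lowest values, since Rtp4 rests on 9 and 3 reads in eGFP libraries and Oasl1 on 0 and 13 reads in mVEGF-C libraries.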
